A study of Mus musculus with 6 samples.

Results

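The proteasome was followed through 62 probe sets for 40 genes in whole mouse lung. Members were all probe sets whose platform annotation names a single gene with a symbol of the form Psma, Psmb, Psmc, Psmd or Psme followed by a number, out of 45037 probe sets tested. The hydrogen group held 3 male BALB/c mice kept for 3 weeks in air with 2% hydrogen, and the control group held 3 such males housed in normal air for the same time. All were 10 weeks old at the start, each lung was measured on its own array, and every value is a deposited log2 signal. No genetic change, injury or disease model was described for either group. The comparison asks which transcripts differ in lung after the hydrogen exposure.

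The proteasome is the protease that degrades proteins tagged with ubiquitin. Its barrel-shaped core is built of rings of alpha subunits (Psma genes), which form the gates, and rings of beta subunits (Psmb genes), 3 of which cut peptide bonds. A regulatory cap sits on the barrel: its base holds ATPases (Psmc genes) that unfold and thread the substrate, and its lid (Psmd genes) removes ubiquitin. In cells exposed to interferon gamma, and in many immune cells at rest, 3 alternative catalytic subunits replace the standard ones to give the immunoproteasome, which makes peptides suited to MHC class I molecules. Activators (Psme genes) can bind the barrel in place of the cap.

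The genes divided into 14 of the standard core, 3 of the immunoproteasome (Psmb8, Psmb9 and Psmb10), 16 of the cap, 2 cap assembly chaperones, 3 activators and 2 core subunits that are specific to other tissues. Of the 40 genes, 26 had 1 probe set and 14 had several, up to 5 for Psmd11. Psmc6, Psmd10 and Psme4 were not analysed here. Each gene is given by the brightest of its probe sets, taken from the mean of the 6 arrays. By that value 38 genes lay above the median probe set (4.80 on the log2 scale). The other 2 were Psma8, a testis subunit, with 3.85, 3.74 and 3.71 in hydrogen lungs, against 3.80, 3.76 and 3.75 in control lungs, and Psmb11, a subunit of the thymic epithelium, with 3.69, 3.76 and 3.76 in hydrogen lungs, against 3.73, 3.72 and 3.68 in control lungs. Neither passed the test (log2 fold changes -0.0033 and 0.03, adjusted p = 0.967 and 0.702), and the groups overlapped in both. In whole lung a lower signal from fewer cells of a type cannot be told apart from less RNA per cell.

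Over the whole series the groups stood apart. Arrays correlated at r = 0.996 to 0.997 within a group and at 0.980 to 0.988 between groups, across probe sets. Of all 45037 probe sets, 10257 were lower and 10956 higher in hydrogen lungs past the threshold of 0.05 (limma, p-values adjusted by Benjamini-Hochberg over all probe sets, as for all adjusted p-values below unless stated). The direction went with brightness: among the brightest 3420 genes, 1515 (44.3%) were lower and 144 (4.21%) higher. The deposited arrays of the groups did not share 1 distribution. Median log2 signals were 4.85, 4.85 and 4.84 in hydrogen lungs, against 4.76, 4.75 and 4.76 in control lungs. The SDs over probe sets were 1.81, 1.80 and 1.81 in hydrogen lungs, against 1.92, 1.91 and 1.90 in control lungs. Of 18 spiked-in hybridisation controls, 13 were lower and 0 higher in limma (median log2 fold change -0.40). The labels name no batch, so none could be entered in a fit, and a batch that ran with the groups cannot be told apart from the hydrogen exposure. Lung epithelial markers identified the tissue, with a summed linear signal of 35731 to 36354 in hydrogen lungs and 36684 to 37502 in control lungs over 7 markers.

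Proteasome genes were lower or not past the threshold, and none was higher. Of 40 genes, 20 fell in hydrogen lungs, 0 rose and 20 did not pass (median log2 fold change -0.17, range -0.81 to 0.11). The background share of genes called lower was 25.9% of 17097, with 25.5% called higher and a median of 0.01. Among the 32 proteasome genes that belong to the brightest 3420 genes, 18 were called lower, and 0 higher, beside the 44.3% and 4.21% of all genes there, whose median was -0.15. The median of those 32 genes was -0.19. After cyclic loess, which removes a dependence of the fold change on brightness between arrays, 8 proteasome genes were lower and 5 higher, and the median was -0.05. The background after cyclic loess was 16.1% lower and 20.5% higher. Renewed quantile normalisation gave 8 lower and 6 higher, with a background of 14.5% lower and 22.8% higher. In 23 of the 40 genes every hydrogen value lay below every control value and in 0 above, beside 29.9% and 31.2% of all genes. Of the 32 proteasome genes among the brightest 3420 genes, this held for 19 below and 0 above. Of all those 3420 genes it held for 1830 below and 245 above.

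**Figure D1:**
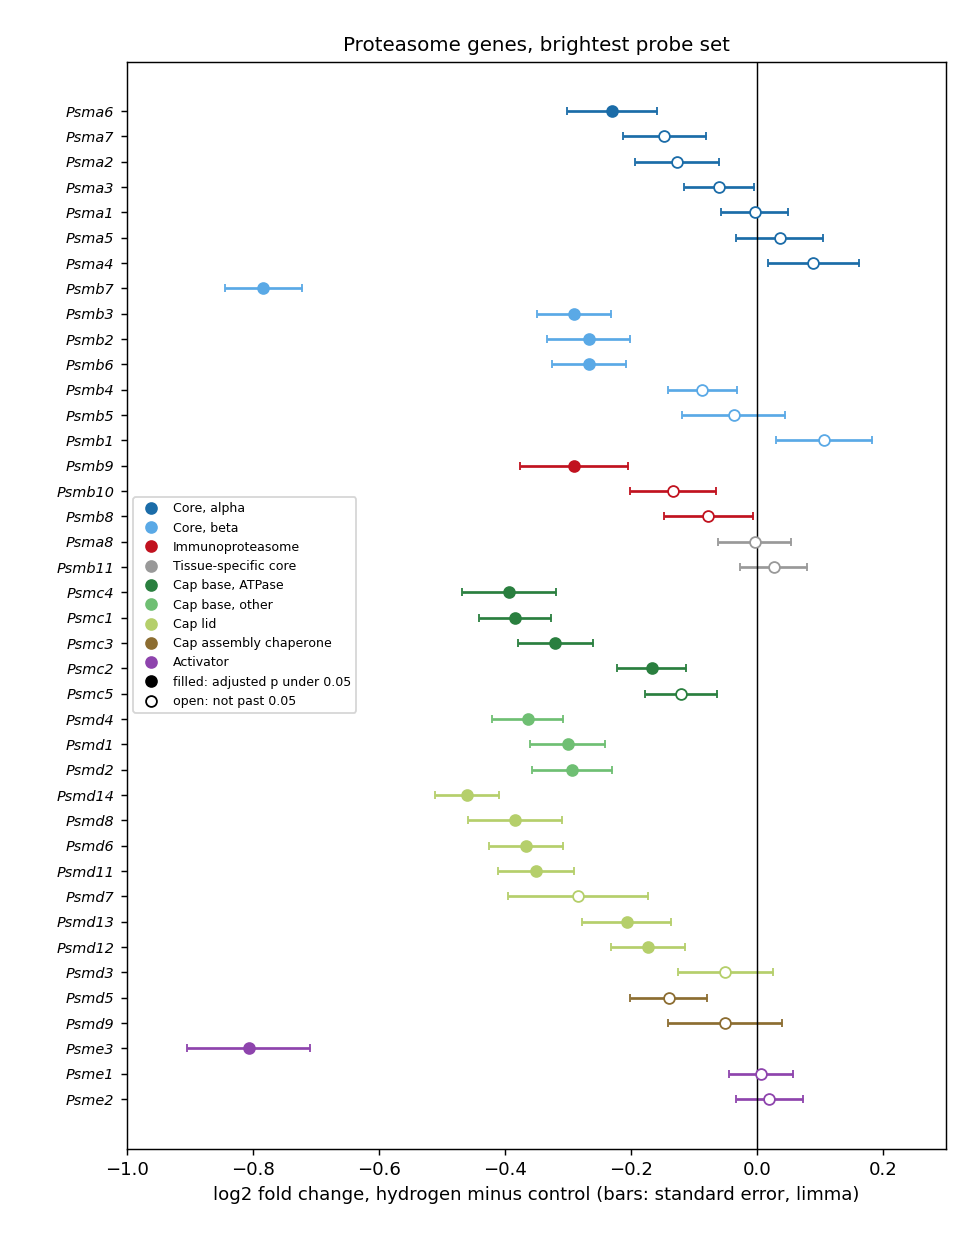
Log2 fold change, hydrogen minus control, of the 40 proteasome genes by their brightest probe set, grouped by role. Points are limma estimates with standard errors from 3 mice a group, and filled points passed an adjusted p of 0.05. Of 16 cap genes 13 are filled and all 16 lie left of 0, while most alpha subunits (median -0.06, and 0.05 after cyclic loess) and the activators Psme1 and Psme2 lie near 0. After cyclic loess 6 cap genes were lower, and the cap genes Psmd3, Psmd12 and Psmc5 lay above 0.

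The cap carried most of the falls. Of its 16 genes, 13 fell, 0 rose and 3 did not pass (median -0.31), and in 15 of 16 all hydrogen values lay below all control values, against 29.9% of all genes. Within the brightest 3420 genes alone that held for 14 of 14 cap genes, beside 1830 of all 3420. Of the 14 standard core genes, 5 fell and 9 did not pass, with a median of -0.11 that turned to 0.02 after cyclic loess and 0.01 after renewed quantile normalisation. The groups were apart for 5 of those 14. The cap median against the control mean was -0.27, -0.32 and -0.35 in hydrogen replicates 1, 2 and 3, and 0.015, -0.01 and 0.00 in control replicates 1, 2 and 3. For the core it was -0.06, -0.15 and -0.12 in the hydrogen replicates and 0.05, -0.04 and -0.01 in the control replicates. In both classes the 3 hydrogen arrays lay below every control array on the deposited values. After cyclic loess this still held for the cap (-0.09, -0.14 and -0.17 in hydrogen, 0.0035, -0.0038 and 0.0034 in control). For the core it did not (0.07, -0.0067 and 0.00035 in hydrogen, 0.04, -0.03 and -0.0052 in control). Within the brightest 3420 genes alone, 13 of 14 cap genes and 4 of 13 core genes were called lower, beside the 44.3% of all genes there. After cyclic loess 6 of those 14 cap genes and 0 of those 13 core genes were lower, where the background was 16.2% lower and 15.2% higher. After cyclic loess 6 of the 16 cap genes remained lower, with a median of -0.14, and 1 of the 14 core genes was lower and 4 were higher. The gap between the classes depended on taking the brightest probe sets. With each gene's probe sets averaged, the median was -0.17 for the core and -0.17 for the cap. Called lower then were 7 of 14 core genes and 10 of 16 cap genes. A difference between the classes was not tested.

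The lid gene Psmd14, whose product is the metalloprotease that cuts ubiquitin chains off the substrate, had the largest fall in the cap. Its log2 signal was 8.85, 8.82 and 8.82 in hydrogen lungs, against 9.27, 9.30 and 9.30 in control lungs. The groups were separated by many times their spread (log2 fold change -0.46, SE 0.05, adjusted p = 0.000452, 1.38-fold lower). After cyclic loess the difference was -0.30 (adjusted p = 0.00303). Psmd8, a lid subunit needed to complete lid assembly, had 8.32, 8.23 and 8.18 in hydrogen lungs, against 8.76, 8.52 and 8.60 in control lungs. The groups did not overlap (-0.38, SE 0.07, adjusted p = 0.00413), and after cyclic loess the call was lost (-0.20, adjusted p = 0.0616). Psmd6, a structural lid subunit, had 8.73, 8.62 and 8.64 in hydrogen lungs, against 9.09, 8.99 and 9.01 in control lungs (-0.37, adjusted p = 0.00176), and passed after cyclic loess too (-0.20, adjusted p = 0.0262). Its second probe set, nearly as bright, did not pass (-0.19, adjusted p = 0.0513) and was -0.02 after cyclic loess (adjusted p = 0.83). At the other end of the lid, Psmd3 had 7.29, 7.45 and 7.47 in hydrogen lungs, against 7.34, 7.47 and 7.55 in control lungs. Its groups overlapped (-0.05, 95% confidence interval -0.22 to 0.12, adjusted p = 0.612), with 0.15 after cyclic loess.

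In all, 6 of 8 lid genes were called lower, beside 25.9% of all genes and 44.3% of the brightest 3420. The remaining calls were those of Psmd11, Psmd12 and Psmd13, and 2 of them were small. Psmd12 (-0.17, adjusted p = 0.0395) did not pass once hydrogen 1, hydrogen 2, hydrogen 3, control 1 or control 3 was left out (adjusted p = 0.0822, 0.117, 0.0668, 0.1145 and 0.0856), and it was 0.03 after cyclic loess. Psmd13 (-0.21, adjusted p = 0.0397) did not pass once hydrogen 1, hydrogen 3, control 1, control 2 or control 3 was left out (adjusted p = 0.056, 0.108, 0.0711, 0.113 and 0.0643), and it was 0.02 after renewed quantile normalisation. Psmd7, the inactive partner of Psmd14, had -0.28 (adjusted p = 0.0652) with groups that did not overlap. With control 3 left out it passed (-0.35, adjusted p = 0.0474), and with any other array left out it did not. It was -0.18 without hydrogen 2 and without control 1 (adjusted p = 0.206 and 0.197), and -0.10 after cyclic loess (adjusted p = 0.513). Psmd7 passed as lower with array weights, median centring, a replicate block and another prior variance (adjusted p = 0.0497, 0.0241, 0.0386 and 0.0472). Its dimmer probe sets had -0.07 and 0.03 and did not pass (adjusted p = 0.414 and 0.761).

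In the base of the cap, 4 of 5 ATPase genes and 3 of 3 other base genes were called lower. The share was 25.9% of all genes and 44.3% of the brightest 3420. The ATPase gene Psmc4 had 8.95, 9.00 and 9.16 in hydrogen lungs, against 9.53, 9.41 and 9.35 in control lungs. The groups did not overlap (-0.39, SE 0.08, adjusted p = 0.00381), and a second probe set of Psmc4 fell by 0.54 on the log2 scale (adjusted p = 0.000413). Psmc1, an ATPase whose tail opens the gate of the core, had 8.20, 8.17 and 8.13 in hydrogen lungs, against 8.60, 8.57 and 8.48 in control lungs. Every hydrogen array was lower by more than the spread within a group (-0.38, SE 0.06, adjusted p = 0.00134). Both genes passed after cyclic loess as well (-0.24 and -0.20, adjusted p = 0.0325 and 0.0265). Psmc5, the ATPase with the smallest difference, had 8.54, 8.49 and 8.47 in hydrogen lungs, against 8.61, 8.56 and 8.69 in control lungs. That difference did not pass (-0.12, adjusted p = 0.117), although the groups did not overlap, and it was 0.06 after cyclic loess.

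The call of the ATPase gene Psmc2 was less firm. It had -0.17 (adjusted p = 0.0362) and did not pass once hydrogen 2, hydrogen 3, control 1, control 2 or control 3 was left out (adjusted p = 0.112, 0.0939, 0.0506, 0.0817 and 0.0881). It was -0.02 both after cyclic loess (adjusted p = 0.78) and after renewed quantile normalisation (adjusted p = 0.803). Psmc3, a further ATPase gene, fell (-0.32, adjusted p = 0.00338) and had -0.16 after cyclic loess (adjusted p = 0.0619). Psmd1 and Psmd2 are the large scaffold subunits of the base. Psmd1 had 7.98, 7.93 and 7.85 in hydrogen lungs, against 8.23, 8.16 and 8.27 in control lungs (-0.30, adjusted p = 0.00462). Psmd2 had 8.74, 8.67 and 8.60 in hydrogen lungs, against 8.88, 9.03 and 8.98 in control lungs (-0.29, adjusted p = 0.00682). The groups did not overlap in either gene, and neither passed after cyclic loess (-0.11 and -0.12, adjusted p = 0.207 and 0.176). The ubiquitin receptor gene Psmd4 is described below with its other probe sets. Of the 2 chaperones that help to assemble the base, neither passed. Psmd5 had 6.99, 6.85 and 7.0 in hydrogen lungs, against 7.10, 7.11 and 7.05 in control lungs, without overlap (-0.14, adjusted p = 0.0886). Psmd9 had 5.73, 5.62 and 5.65 in hydrogen lungs, against 5.91, 5.69 and 5.55 in control lungs, with overlap (-0.05, adjusted p = 0.672).

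**Figure D2:**
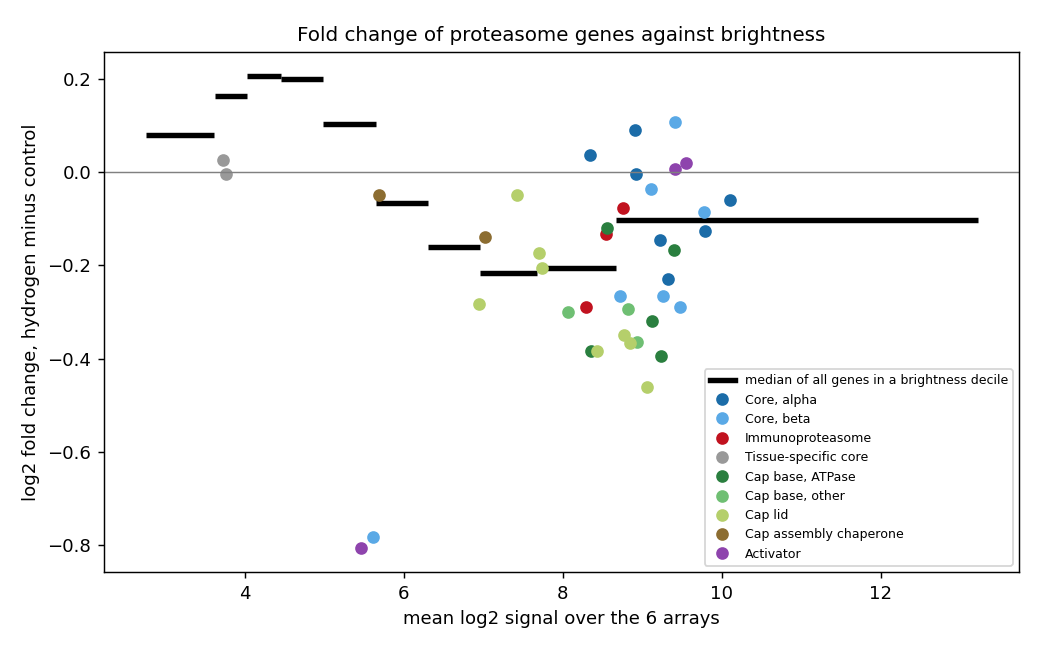
Log2 fold change, hydrogen minus control, of the 40 proteasome genes against their mean log2 signal over the 6 arrays, with black bars for the median of all genes in each brightness decile. Most proteasome genes lie among the brightest genes, where the decile medians were -0.21 and -0.10. Psmb7 and Psme3 lie far below the median of 0.10 in their decile.

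Few genes of the alpha ring passed the test. Of its 7 genes, 1 fell and 6 did not pass (median -0.06, and 0.05 after cyclic loess, where 3 rose). Among the brightest 3420 genes 44.3% were called lower, and after cyclic loess 15.2% were called higher. Over all genes these shares were 25.9% and 20.5%. Psma6 had 9.20, 9.10 and 9.34 in hydrogen lungs, against 9.49, 9.40 and 9.44 in control lungs. The groups did not overlap (-0.23, SE 0.07, adjusted p = 0.0278), but the call was lost once hydrogen 1, hydrogen 2, control 1 or control 3 was left out (adjusted p = 0.0729, 0.0983, 0.0812 and 0.0567). It was lost as well after cyclic loess (-0.08, adjusted p = 0.375) and renewed quantile normalisation (-0.08, adjusted p = 0.399). Psma7 had 9.23, 9.13 and 9.09 in hydrogen lungs, against 9.37, 9.21 and 9.31 in control lungs, an overlapping pair of groups (-0.15, adjusted p = 0.0956). Its second probe set fell by 0.38 on the log2 scale (adjusted p = 0.0104), a call lost after cyclic loess (-0.20, adjusted p = 0.11) and renewed quantile normalisation (-0.19, adjusted p = 0.123). Psma4 was at the upper end with 9.10, 8.92 and 8.86 in hydrogen lungs, against 8.92, 8.82 and 8.87 in control lungs. Its groups overlapped (0.09, adjusted p = 0.335). After cyclic loess it rose (0.26, adjusted p = 0.0253), as did Psma1 (0.16, adjusted p = 0.0426) and Psma5 (0.22, adjusted p = 0.0303). On the deposited scale Psma1 had -0.0033 and Psma5 had 0.04, and neither passed (adjusted p = 0.966 and 0.685). Psma1 also had 2 dim probe sets that fell by 0.34 and 0.27 on the log2 scale (adjusted p = 0.00408 and 0.0201), and the average of its probe sets passed as lower (-0.20, adjusted p = 0.0141). Psma2 had -0.13 and Psma3 -0.06, neither past the threshold (adjusted p = 0.149 and 0.405).

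In the beta ring 4 of 7 genes fell and 3 did not pass (median -0.27, and -0.09 after cyclic loess, where 1 fell and 1 rose). That count stands beside 25.9% of all genes called lower and 44.3% of the brightest 3420. Psmb7, the subunit with trypsin-like activity, had the second largest fall of all 40 genes. Its log2 signal was 5.26, 5.29 and 5.13 in hydrogen lungs, against 6.03, 6.03 and 5.97 in control lungs. The gap was far wider than the spread in either group (-0.78, SE 0.06, adjusted p = 0.000234, 1.72-fold lower), and it was -0.76 after cyclic loess. Psmb7 was measured by 1 probe set, with a lower signal than any other standard core gene had. Psmb6, the subunit with caspase-like activity, had 9.20, 9.10 and 9.09 in hydrogen lungs, against 9.46, 9.36 and 9.37 in control lungs. The groups did not overlap (-0.27, SE 0.06, adjusted p = 0.0072), and the call was lost after cyclic loess (-0.12, adjusted p = 0.149). Psmb5, the subunit with chymotrypsin-like activity and the main target of proteasome inhibitor drugs, had 9.18, 9.14 and 8.97 in hydrogen lungs, against 9.26, 9.02 and 9.12 in control lungs. Its groups overlapped (-0.04, 95% confidence interval -0.22 to 0.15, adjusted p = 0.736). The 3 standard catalytic subunits thus had unlike values in the same lungs.

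Among the beta subunits without catalytic activity, Psmb3 had 9.32, 9.36 and 9.30 in hydrogen lungs, against 9.68, 9.64 and 9.53 in control lungs (-0.29, adjusted p = 0.00514). The groups did not overlap, and the second probe set of the gene had -0.14 (adjusted p = 0.0831). Psmb2 had -0.27 (adjusted p = 0.0114) and Psmb4 had -0.09 (adjusted p = 0.221). Psmb1 had 9.38, 9.44 and 9.57 in hydrogen lungs, against 9.28, 9.48 and 9.31 in control lungs. These overlapped (0.11, adjusted p = 0.275), and after cyclic loess the gene rose (0.25, adjusted p = 0.0339). The calls of Psmb2 and Psmb3 were lost after cyclic loess (-0.09 and -0.15, adjusted p = 0.282 and 0.0827).

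Of the immunoproteasome genes, 1 fell and 2 did not pass (median -0.13, and 0.05 after cyclic loess and 0.06 after renewed quantile normalisation). All 3 belong to the brightest 3420 genes, of which 44.3% were called lower, beside 25.9% of all genes. Psmb8, which takes the place of Psmb5, had 8.70, 8.68 and 8.79 in hydrogen lungs, against 8.93, 8.72 and 8.75 in control lungs. The groups overlapped (-0.08, 95% confidence interval -0.24 to 0.08, adjusted p = 0.398). Psmb9, which takes the place of Psmb6, had 8.12, 8.10 and 8.23 in hydrogen lungs, against 8.62, 8.40 and 8.30 in control lungs. It fell (-0.29, SE 0.09, adjusted p = 0.024), a call that was lost once hydrogen 1, hydrogen 2 or control 1 was left out (adjusted p = 0.0682, 0.0773 and 0.0572) and after cyclic loess (-0.10, adjusted p = 0.362). Psmb10, which takes the place of Psmb7, had 8.43, 8.44 and 8.58 in hydrogen lungs, against 8.68, 8.52 and 8.65 in control lungs. Its groups overlapped (-0.13, 95% confidence interval -0.29 to 0.02, adjusted p = 0.14).

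**Figure D3:**
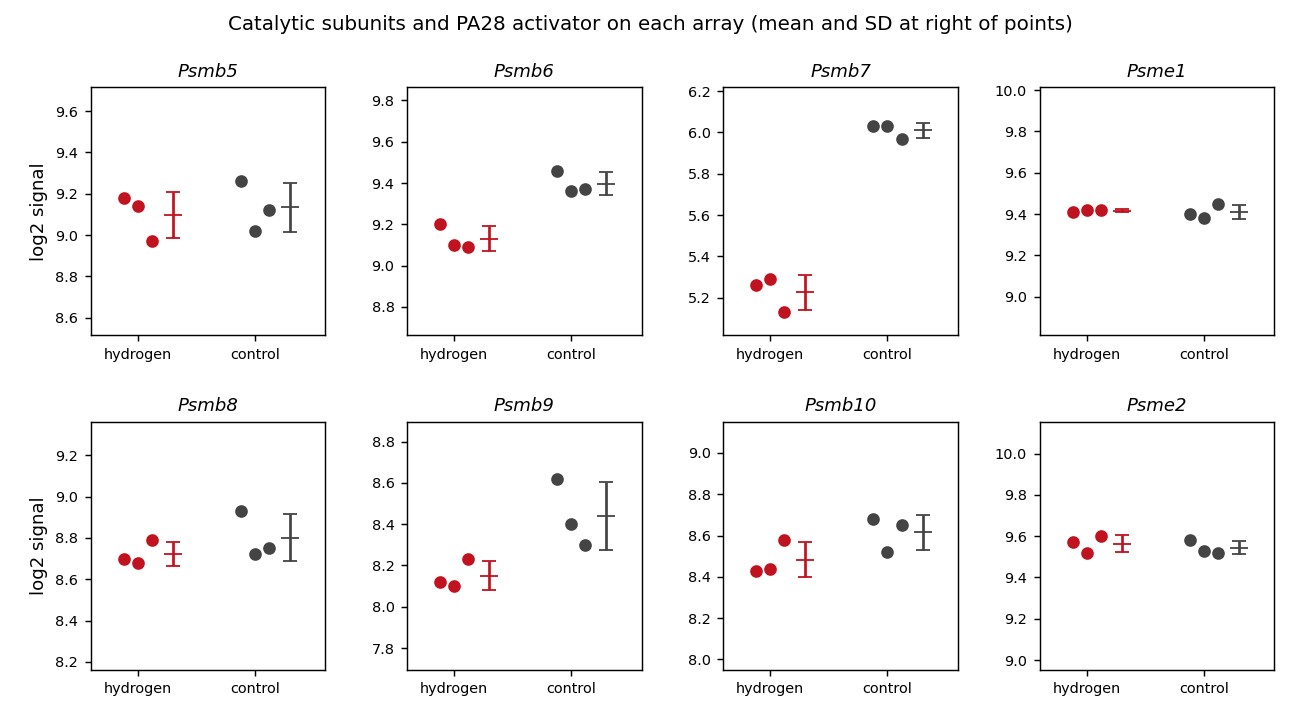
Log2 signal on each array for the standard catalytic subunits Psmb5, Psmb6 and Psmb7, their immunoproteasome counterparts Psmb8, Psmb9 and Psmb10 below them, and the activator genes Psme1 and Psme2 at right. Each panel spans the same range, points are mice (3 a group), and the bar beside them is the mean with its SD. Psmb7 shows the widest gap, 5.13 to 5.29 in hydrogen lungs against 5.97 to 6.03 in control lungs, while Psme1 and Psme2 overlap.

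Each immunoproteasome gene was also set against the standard subunit it replaces, as the difference of their log2 signals on each array. For 2 of the 3 pairs the change was smaller than its standard error. The change of Psmb8 minus Psmb5 between the groups was -0.04 (SE 0.10), with an exact two-sided permutation p = 0.8 (adjusted p = 0.8 over the 3 pairs, n = 3). That of Psmb9 minus Psmb6 was -0.02 (SE 0.09, exact permutation p = 0.7, adjusted p = 0.8). For Psmb10 minus Psmb7 it was 0.65 (SE 0.11): the difference was 3.17, 3.15 and 3.45 on the hydrogen arrays, against 2.65, 2.49 and 2.68 on the control arrays. All 3 hydrogen arrays exceeded all control arrays, and the exact permutation p = 0.1 (adjusted p = 0.3) is the smallest that 3 against 3 arrays can give. Psmb10 itself did not rise (-0.13, adjusted p = 0.14 in limma), while Psmb7, measured by a single, weaker probe set, had -0.78. With each gene's probe sets averaged, the changes of the first and second pair were 0.23 and 0.22.

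Promoter sequences are shown for the standard catalytic genes Psmb5 and Psmb6, the immunoproteasome gene Psmb8, the activator gene Psme1 and the cap gene Psmd14. Psmd14, with the largest fall in the cap, and Psmb6 were called lower, while Psmb5, Psmb8 and Psme1 did not pass. Each window shown holds a match of a motif, and Psmb7 is not shown. RefSeq promoter windows (build GRCm38.p6, 250 bases before to 50 after the annotated start) were matched for 33 of the 40 genes, as 36 windows. Capitals mark matches on either strand of 1 motif in each: TGACNNNGC, the antioxidant response element bound by NFE2L1 and NFE2L2, in Psmb5 and Psmb6, TTCNNNGAA, the gamma-activated site, in Psmb8, the interferon-stimulated response element, searched as GAAA and GAAA parted by any 2 bases, in Psme1, and CCAAT, the CCAAT box, in Psmd14. Sequences run 5′ to 3′ along the gene.
Psmb5 (chr14:54617946-54618245, minus strand): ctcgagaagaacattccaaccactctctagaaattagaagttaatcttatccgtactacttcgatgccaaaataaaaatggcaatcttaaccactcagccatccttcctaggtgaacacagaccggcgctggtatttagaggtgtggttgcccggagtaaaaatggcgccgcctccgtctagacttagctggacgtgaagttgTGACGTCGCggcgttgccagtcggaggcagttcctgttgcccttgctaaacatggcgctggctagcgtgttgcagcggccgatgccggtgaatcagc
Psmb6 (chr11:70525107-70525406, plus strand): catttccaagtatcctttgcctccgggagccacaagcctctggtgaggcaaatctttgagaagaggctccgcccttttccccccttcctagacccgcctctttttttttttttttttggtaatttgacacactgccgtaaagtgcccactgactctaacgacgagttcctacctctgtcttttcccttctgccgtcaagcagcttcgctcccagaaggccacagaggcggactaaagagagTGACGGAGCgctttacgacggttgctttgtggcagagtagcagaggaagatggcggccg
Psmb8 (chr17:34197945-34198244, plus strand): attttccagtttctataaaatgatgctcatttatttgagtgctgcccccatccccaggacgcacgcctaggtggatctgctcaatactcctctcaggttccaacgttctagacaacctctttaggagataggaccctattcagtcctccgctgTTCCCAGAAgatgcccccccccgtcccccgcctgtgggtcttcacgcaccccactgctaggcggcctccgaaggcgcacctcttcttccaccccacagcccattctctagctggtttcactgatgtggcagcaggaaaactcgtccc
Psme1 (chr14:55578244-55578543, plus strand): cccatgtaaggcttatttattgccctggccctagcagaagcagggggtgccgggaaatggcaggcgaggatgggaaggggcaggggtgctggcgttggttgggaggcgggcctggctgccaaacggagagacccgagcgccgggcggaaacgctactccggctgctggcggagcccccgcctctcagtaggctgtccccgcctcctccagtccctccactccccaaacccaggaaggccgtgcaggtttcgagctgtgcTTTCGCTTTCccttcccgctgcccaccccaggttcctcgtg
Psmd14 (chr2:61711444-61711743, plus strand): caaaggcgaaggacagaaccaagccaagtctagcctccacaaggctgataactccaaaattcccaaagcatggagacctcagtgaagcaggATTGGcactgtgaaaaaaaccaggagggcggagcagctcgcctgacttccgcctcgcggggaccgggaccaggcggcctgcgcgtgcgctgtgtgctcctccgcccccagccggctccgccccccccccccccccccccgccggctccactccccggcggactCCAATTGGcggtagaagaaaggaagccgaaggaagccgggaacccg
The match begins 47 bases before the annotated start in Psmb5, 9 before it in Psmb6 and 97 before it in Psmb8, and 9 bases after it in Psme1. Psmd14 holds 3 matches, of which the last ones share bases.

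The antioxidant response element was present in the windows of 4 of the 33 genes (Psmb5, Psmb6, Psmd9 and Psmd12), beside 12.4% of all 32851 mouse promoter windows of that length. Of those 4 genes, 2 were called lower, and of the 29 others, 15. The CCAAT box was present for 13 genes, beside 37.4% of all windows, and 8 of the 13 were called lower, against 9 of the 20 without it. The interferon-stimulated response element was present for 4 genes (Psmb3, Psmd4, Psmd9 and Psme1), beside 3.44% of all windows, and 2 of them were called lower, against 15 of the 29 without it. The gamma-activated site was present for 2 (Psmb8 and Psmd2), beside 8.3%, and 1 of them was called lower, against 16 of the 31 without it. Matches of different motifs did not overlap in any of the 36 windows. These are matches of letters only.

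The activators split. Psme1 and Psme2, whose products form the ring that binds the immunoproteasome in antigen-presenting cells, had nearly equal values in the groups. Psme1 had 9.41, 9.42 and 9.42 in hydrogen lungs, against 9.40, 9.38 and 9.45 in control lungs (0.0067, 95% confidence interval -0.11 to 0.12, adjusted p = 0.926). Psme2 had 9.57, 9.52 and 9.60 in hydrogen lungs, against 9.58, 9.53 and 9.52 in control lungs (0.02, 95% confidence interval -0.10 to 0.14, adjusted p = 0.781). Both intervals reach no further than 0.14 from 0, and after cyclic loess the values were 0.15 and 0.16, of which Psme2 passed (adjusted p = 0.044). Renewed quantile normalisation gave 0.16 for each, and both passed (adjusted p = 0.0444 and 0.0462). Psme3, whose product forms a separate activator in the nucleus, had 4.96, 5.25 and 4.96 in hydrogen lungs, against 5.79, 6.01 and 5.79 in control lungs. This was the largest fall of the 40 genes (-0.81, SE 0.10, adjusted p = 0.000621, 1.75-fold lower), with no overlap, and it was -0.82 after cyclic loess. A dimmer probe set of Psme3, at 3.54, 3.53 and 3.63 in hydrogen lungs and 3.60, 3.46 and 3.69 in control lungs, did not pass (-0.02, adjusted p = 0.864).

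**Figure D4:**
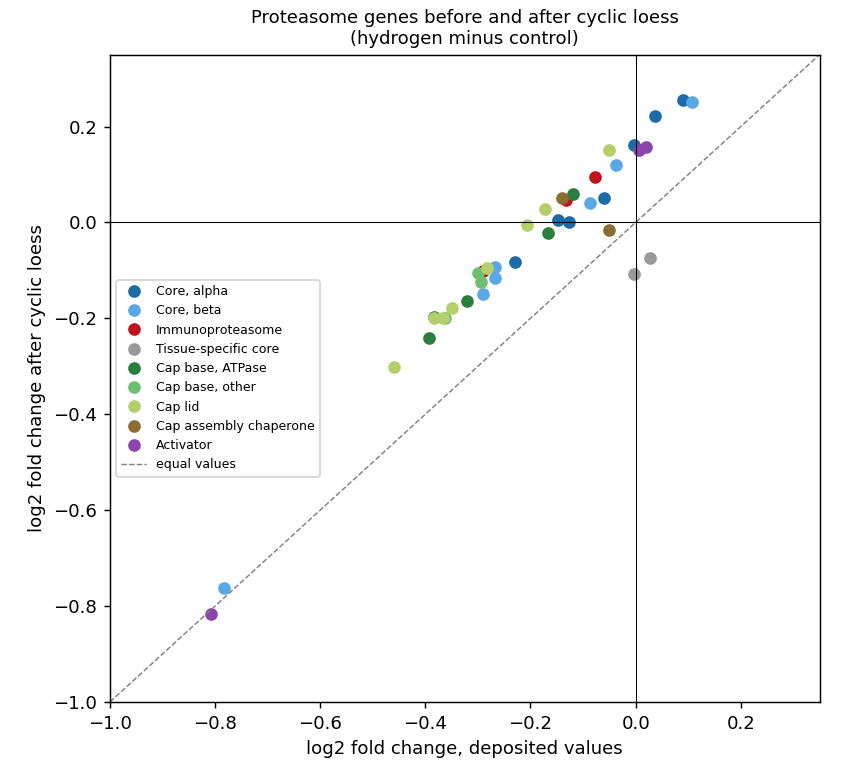
Log2 fold change, hydrogen minus control, of the 40 genes on the deposited values (x) and after cyclic loess over the 6 arrays (y), coloured by role. Nearly all bright genes lie above the dashed line of equal values, which turns the core median of -0.11 to 0.02 and moves the cap median of -0.31 to -0.14, while Psmb7 and Psme3 lie close to that line.

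Probe sets of the same gene did not always move together. Over all 62 probe sets, 25 were lower, 6 higher and 31 did not pass, where the background was 22.8% lower and 24.3% higher. After cyclic loess 13 were lower and 10 higher, beside 18.4% and 17.0% of all probe sets. The groups were apart with hydrogen lower in 31 and with hydrogen higher in 7, beside 26.4% and 30.9%. None of the 6 that rose was the brightest of its gene, which follows from no brightest probe set being called higher. In Psmd4, the ubiquitin receptor of the cap, the brightest probe set had 8.77, 8.78 and 8.72 in hydrogen lungs, against 9.06, 9.12 and 9.18 in control lungs (-0.36, adjusted p = 0.00158). Another had 6.48, 6.58 and 6.46 in hydrogen lungs, against 5.61, 5.72 and 5.80 in control lungs (0.80, adjusted p = 0.000255). After cyclic loess these probe sets had -0.20 and 0.90 (adjusted p = 0.0286 and 0.000218). The groups were apart in both, in opposite directions, and the third probe set had -0.19 (adjusted p = 0.101). With its probe sets averaged, Psmd4 had 0.08 (adjusted p = 0.288), so the direction for this gene depends on the probe set.

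Psmd11, a lid subunit that clamps the cap to the core, had 5 probe sets. The brightest had 8.62, 8.53 and 8.65 in hydrogen lungs, against 8.97, 9.00 and 8.88 in control lungs (-0.35, adjusted p = 0.00247), and the next had 6.97, 6.94 and 6.97 in hydrogen lungs, against 7.64, 7.41 and 7.61 in control lungs (-0.59, adjusted p = 0.000596). Dimmer ones, at means of 4.49 and 4.27 in hydrogen lungs and 4.14 and 3.92 in control lungs, both rose by 0.35 (adjusted p = 0.00401 and 0.00496). After cyclic loess these rises were 0.21 and 0.22 (adjusted p = 0.0417 and 0.048). Of all genes with a signal in that range, brightness decile 3, 51.3% were called higher on the deposited values. The last Psmd11 probe set had 3.62, 3.67 and 3.57 in hydrogen lungs, against 3.57, 3.67 and 3.58 in control lungs (0.01, adjusted p = 0.866). Averaged over its probe sets, Psmd11 had -0.05 and did not pass (adjusted p = 0.409). Psmb9 and Psmb8 also had dim probe sets that rose, at signals where 51.3% and 44.4% of all genes were called higher. The dimmest Psmb9 probe set had 4.22, 4.31 and 4.34 in hydrogen lungs, against 3.98, 4.10 and 3.95 in control lungs (0.28, adjusted p = 0.00799), a call lost after cyclic loess (0.15, adjusted p = 0.11). A dim Psmb8 probe set, which its name marks as open to cross-hybridisation, had 4.20, 4.17 and 4.30 in hydrogen lungs, against 3.78, 3.77 and 3.76 in control lungs (0.45, adjusted p = 0.000696). That call held after cyclic loess (0.33, adjusted p = 0.00376). In Psmd9 a probe set close in brightness to the main one rose (0.33, adjusted p = 0.00815), also after cyclic loess (0.34, adjusted p = 0.0103). Averages over probe sets gave Psmb8 0.19 (adjusted p = 0.0214) and Psmb9 -0.04 (adjusted p = 0.567).

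**Figure D5:**
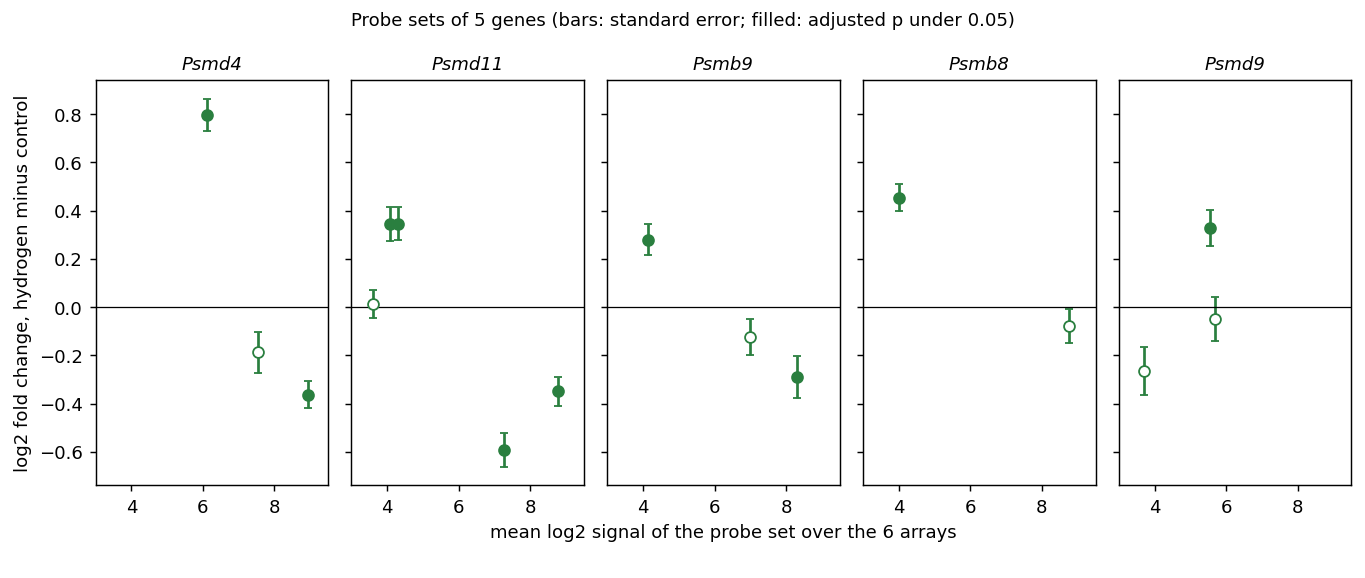
Log2 fold change, hydrogen minus control, of each probe set of Psmd4, Psmd11, Psmb9, Psmb8 and Psmd9 against its mean log2 signal over the 6 arrays. Bars are standard errors, and filled points passed an adjusted p of 0.05. In Psmd4, Psmd11 and Psmb9 probe sets passed in both directions, from -0.59 to 0.80. After cyclic loess no Psmb9 probe set passed.

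Other genes of the pathway were mostly not past the threshold, and the counts below stand beside 25.9% of all genes called lower and 25.5% called higher. Of 6 further proteins of the assembled proteasome, 2 fell and 0 rose (median -0.02, and 0.08 after cyclic loess, where 2 fell and 2 rose): Uchl5, a ubiquitin-removing enzyme bound to the cap, had 6.72, 6.74 and 6.83 in hydrogen lungs, against 7.53, 7.38 and 7.20 in control lungs (-0.61, adjusted p = 0.00109), and Ecpas, an adaptor between cap and core, had -0.53 (adjusted p = 0.00323). Ube3c, a ubiquitin ligase found on the proteasome, had 0.16 (adjusted p = 0.177). Of 5 core assembly chaperones, 2 fell and 0 rose (median -0.15, and 0.05 after cyclic loess, where 1 rose and none fell). Psmg2, which helps to build the alpha ring, had -0.52 (adjusted p = 0.0106), Pomp, the maturation factor of the core, -0.15 (adjusted p = 0.0423), and Psmg3 -0.15 (adjusted p = 0.08).

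Of 7 genes that control proteasome transcription, 3 fell and 0 rose (median -0.19, and 0.0027 after cyclic loess, where none passed). They were the stress factor gene Nfe2l2 (-0.24, adjusted p = 0.0233), Ngly1, whose enzyme processes NFE2L1 (-0.19, adjusted p = 0.0275), and the partner gene Mafg (-0.28, adjusted p = 0.0282). Nfe2l1 itself, which drives proteasome genes when the proteasome is inhibited, had 8.42, 8.45 and 8.38 in hydrogen lungs, against 8.49, 8.60 and 8.74 in control lungs (-0.19, adjusted p = 0.053). Of 8 genes of ubiquitin supply and shuttling, 2 fell and 0 rose (median -0.07, and 0.06 after cyclic loess, where none passed): Ufd1 (-0.26, adjusted p = 0.00844) and Bag6 (-0.25, adjusted p = 0.01). The shuttle gene Ubqln2 had -0.11 (adjusted p = 0.152).

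Of 8 genes of MHC class I presentation, 1 fell and 2 rose, close to the 25.9% and 25.5% of all genes (median -0.05, and 0.04 after cyclic loess, where 0 fell and 1 rose). The class I heavy chain gene H2-D1 had 11.18, 11.06 and 11.10 in hydrogen lungs, against 10.92, 10.79 and 10.81 in control lungs (0.27, adjusted p = 0.00773), and Pdia3, which helps to fold the heavy chain, rose by 0.31 from a dim probe set (adjusted p = 0.00363). Erap1, which trims peptides, had -0.33 (adjusted p = 0.00967). After cyclic loess H2-D1 passed (0.34, adjusted p = 0.00383), while Pdia3 (0.18) and Erap1 (-0.22) did not (adjusted p = 0.0522 for each). Of 7 interferon-induced genes, 3 fell and 1 rose (median -0.11): Gbp2 had -0.62 (adjusted p = 0.000947), Ifit1 -0.44 (adjusted p = 0.000759) and Irf7 0.69 (adjusted p = 0.000805).

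Markers of several cell types moved with the groups. Of 5 markers of all leukocytes, which carry much of the immunoproteasome, 2 rose and 0 fell, beside the 25.5% of all genes called higher and the 25.9% called lower, and their summed linear signal was 2533 to 2722 in hydrogen lungs and 2045 to 2281 in control lungs. The genes with the smallest p were Ptprc (0.45, adjusted p = 0.00126), Cd52 (0.29, adjusted p = 0.0326) and Cd53 (0.11, adjusted p = 0.137). Of 7 T cell markers 4 rose and 1 fell (summed signal 369 to 414 in hydrogen lungs, 319 to 348 in control lungs), led by Cd8a, Cd4 and Cd5 (0.54, 0.34 and 0.42). These 3 lie in brightness deciles 4 and 5, where 48.7% and 38.6% of all genes were called higher. After cyclic loess Cd5 (0.28, adjusted p = 0.0555) and Cd2 (-0.16, adjusted p = 0.169) did not pass. Of 4 B cell markers 2 rose and 0 fell (510 to 630 in hydrogen lungs, 436 to 490 in control lungs), with Cd22 at 0.29, Ms4a1 at 0.30 and Cd79b at 0.34, the last not past the threshold (adjusted p = 0.0782). Over these 3 lists the genes that did not rise include Cd2, which fell (-0.25, adjusted p = 0.0405). Under cyclic loess 4 of 5 leukocyte, 4 of 7 T cell and 3 of 4 B cell markers were higher and 0 lower. Of all genes 20.5% were then higher and 16.1% lower. Cd53, Laptm5, Cd3e and Cd79b passed only on that scale (0.28, 0.30, 0.22 and 0.54).

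The counts for the remaining cell types also stand beside 25.9% of all genes called lower and 25.5% called higher. Of 6 macrophage markers 1, Mrc1, fell (-0.50, adjusted p = 0.0072), while Marco and Cd68 had 0.32 and -0.17 (adjusted p = 0.0686 and 0.0806), and the summed signal was 1270 to 1498 in hydrogen lungs and 1250 to 1868 in control lungs. All 10 cardiac muscle markers fell (892 to 3724 in hydrogen lungs, 7328 to 9021 in control lungs; median -1.90), among them Actn2, Ldb3 and Ryr2 (-1.91, -1.63 and -1.63). Of 7 lung epithelial markers Hopx and Ager fell (-0.22 and -0.15, adjusted p = 0.0137 and 0.0437) and Cldn18 had -0.08 (adjusted p = 0.312). Of 4 endothelial markers Pecam1 fell (-0.25, adjusted p = 0.0224), and Tek and Cdh5 had -0.12 and 0.08 (adjusted p = 0.213 and 0.358), with a summed signal of 3802 to 4552 in hydrogen lungs and 4211 to 4606 in control lungs. After cyclic loess Mrc1 (-0.30, adjusted p = 0.0663) and Pecam1 (-0.07, adjusted p = 0.48) did not pass, while all 10 cardiac markers, Hopx and Ager did. The macrophage marker Csf1r, at 0.05 on the deposited values, then rose (0.22, adjusted p = 0.0177). Cd5 and Marco were dimmer than the median probe set, and no marker was listed at 0. What these cell types contribute to the proteasome values was not tested.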

How the data were processed

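Whole-lung RNA of 6 mice was measured, 3 per group. Per the labels' protocols, tissue was stored in RNAlater, RNA was purified on columns, and labelled antisense RNA went onto MG-430 PM Array Strips. The deposited values are log2 signals per probe set, made with RMA and Affymetrix Expression Console per the submitters' processing notes, with versions and joint normalisation not given in the sources used here. Their medians and spreads differed between the groups, as given above. The number of arrays limits the precision.

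All 45037 probe sets other than 104 control probe sets were fitted without a filter by lmFit and eBayes (limma 3.58.1, R 4.3.3), hydrogen minus control. Of these, 28898 carried a single gene in the platform annotation, 551 carried several and 15588 had no gene listed. The 2 probe sets that pair a member with another gene were left out. All 40 symbols matched RefSeq (GRCm38.p6) by Entrez identifier. Pairs of subunits were compared by exact permutation (scipy 1.17.1, Python 3.11.15).

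Members, lists and tests were chosen with earlier results of these data known. Values on every array were to be given for the catalytic subunits, Psme1, Psme2, the 2 lowest and the highest of each other class and genes with probe sets called both ways, and each further list was to be named by its 3 smallest p-values. Other genes and probe sets, such as Nfe2l1, Psmd12 and Psmd13, were named after their values were seen. The fit was tested on simulated data. A first pass mark there, on the share of small changes recovered, was not met and was replaced by marks on bias and false calls. Alternatives were other scalings between arrays, array weights, another prior variance, filters on dim or shared probe sets, averages over probe sets, a fit over genes, a replicate block and leaving out each array.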

Additional observations from a re-analysis of the deposited data

How the results depend on the processing

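Up to 16 alternatives were run for each result, and the scaling between arrays moved most. Cyclic loess gave 13 lower and 10 higher proteasome probe sets, 8 lower and 5 higher genes, 1 lower core gene and 6 lower cap genes, with medians of 0.023 (core), 0.046 (immunoproteasome), -0.14 (cap) and 0.15 (activators). Renewed quantile normalisation gave 13 lower and 11 higher probe sets, 8 lower and 6 higher genes, 1 lower core gene and 6 lower cap genes, with medians of 0.014, 0.062, -0.13 and 0.16 in that order. Median centring moved the counts the other way, to 37 lower and 6 higher probe sets, 27 lower and 0 higher genes, 8 lower core genes and 15 lower cap genes, with medians of -0.20, -0.22, -0.40 and -0.083. Averaging a gene's probe sets gave 18 lower genes and 1 higher gene, with 7 lower core genes and 10 lower cap genes. The medians were then -0.17 (core), -0.044 (immunoproteasome) and -0.17 (cap), so core and cap no longer differed. Without dim probe sets, which makes a smaller table, 12059 probe sets were called in all and 2 proteasome probe sets were higher. The cause of the other shifts was not tested.

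The following genes turned their sign. Under cyclic loess the values were Psmb5 0.12, Psma1 0.16, Psmc5 0.059, Psmb8 0.094, Psmd5 0.051, Psma7 0.0055, Psma3 0.052, Psmd3 0.15, Psmd12 0.027, Psmb10 0.046, Psmb4 0.041 and Psmb11 -0.075. Under renewed quantile normalisation they were Psmb5 0.13, Psma1 0.17, Psmc5 0.071, Psmd13 0.019, Psmb8 0.10, Psmd5 0.083, Psmd9 0.0028, Psma7 0.017, Psma3 0.031, Psmd3 0.18, Psmd12 0.057, Psmb10 0.062, Psmb4 0.011 and Psmb11 -0.081. Median centring gave Psme1 -0.083, Psme2 -0.070, Psma5 -0.053 and Psmb11 -0.063, array weights gave Psma1 0.0040, and averaging gave Psmb8 0.19, Psmd4 0.082 and Psmd9 0.0033.

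Leaving out each array in turn gave 15 to 18 lower genes and 0 higher, 19 to 23 lower probe sets, 10 to 11 lower cap genes and 4 to 5 lower core genes. The activator median was -0.0083 to 0.010. Some genes near 0 changed sign: Psmb5 (-0.093 to 0.027), Psma1 (-0.032 to 0.018), Psmd9 (-0.13 to 0.047), Psma8 (-0.045 to 0.025), Psme1 (-0.0083 to 0.027), Psma5 (-0.012 to 0.098) and Psmd3 (-0.11 to 0.0067). The change of Psmb8 minus Psmb5 was -0.14 to 0.013 and that of Psmb9 minus Psmb6 was -0.083 to 0.035. The change of Psmb9 minus Psmb6 was 0.028 on requantiled values and 0.014 on loess values, and averaging gave 0.23 for Psmb8 minus Psmb5 and 0.22 for Psmb9 minus Psmb6. The change of Psmb10 minus Psmb7 was 0.55 to 0.81 under all alternatives run on it, but with an array left out the exact permutation test cannot go below 0.2. Array weights, prior variance, the replicate block and the filter on dim probe sets were not run on these differences.

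The groups share replicate numbers but come from different mice. Deviations of same-numbered arrays correlated at 0.0784, 0.0287 and -0.109, so the numbers were not taken as pairs, and not every array correlated best with its own number. With a replicate block 19 proteasome genes and 12 cap genes were lower, and 19777 probe sets were called in all.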
